A study of Mus musculus with 6 samples.

Results

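The levels of 10 mouse genes of glycolysis and of the response to low oxygen, Slc2a1, Hk2, Pfkfb3, Aldoa, Pgk1, Eno1, Ldha, Hif1a, Bnip3 and Egln3, were measured in 3 fractions of phagocytes sorted from the sublingual mucosa. The genes were chosen by name: every non-control probe that carried one of the 10 names in the scanner files was taken, which gave 17 of the 56605 probes on the array. A probe was kept when the scanner called it well above background on every array of 1 or more fractions. That held for 15 probes of 9 genes, which entered the tests among 20817 genes; Egln3 did not pass and is described without a test.

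Fr1 was the CD11c+ CD206- fraction, Fr2 the CD11c- F480+ CD206- fraction and Fr3 the F480+ CD206-high fraction, where CD11c, F480 and CD206 are the products of Itgax, Adgre1 and Mrc1. All 3 fractions came from BALB/c mice whose sublingual mucosa had been painted with FITC, a fluorescent contact sensitiser, 2 times; no unpainted mice were analysed here, and the age of the mice and the number pooled in a sort are not given in the sources used here. Each fraction had 2 arrays from independent experiments. The labels name the sublingual mucosa as the tissue, and the protocol names the dorsal side of the tongue as what was digested. RNA was amplified by a whole-transcriptome kit, made into cDNA and labelled with Cy3, and the study asked how the fractions differ in expression.

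Glycolysis splits glucose into pyruvate in the cytosol, and lactate dehydrogenase turns pyruvate into lactate when it is not burnt in mitochondria. Hypoxia-inducible factor 1 pairs the oxygen-regulated subunit HIF1A with ARNT and switches on most enzymes of this route. While oxygen is present, prolyl hydroxylases of the EGLN family mark HIF1A for removal through VHL, so HIF1A is set largely at the protein, which an array does not measure. Macrophages, dendritic cells and neutrophils are known to use glycolysis heavily once activated.

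The promoters of these genes hold the core letters that HIF1 is known to bind, ACGTG or GCGTG, searched on both strands from 250 bases before to 50 after each start. At least 1 match was present in 15 of 16 promoters of the 10 genes (93.8%), against 43.8% of all 32851 promoters in the RefSeq table (build GRCm38.p6). A match is a description of the letters; no binding was measured. Matches that read the same on both strands were counted on each. Some windows of Eno1 and of Aldoa overlap and hold the same sites, so the 16 are not independent. By gene, all 10 had a match, against 12628 of 27025 genes. Both motifs hold the letters CG, and the promoters compared were not matched for CG content. The windows of Bnip3 and Ldha with most matches are shown because they hold several close together, with the motif letters of either strand in capitals. The Bnip3 window lies at chr7:138909532-138909631 on the minus strand, 125 to 26 bases before the start, and the Ldha window at chr7:46845654-46845783 on the plus strand, 150 to 21 bases before the start.
Bnip3: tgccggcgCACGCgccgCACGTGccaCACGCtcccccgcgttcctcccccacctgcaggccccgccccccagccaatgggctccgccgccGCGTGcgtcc
Ldha: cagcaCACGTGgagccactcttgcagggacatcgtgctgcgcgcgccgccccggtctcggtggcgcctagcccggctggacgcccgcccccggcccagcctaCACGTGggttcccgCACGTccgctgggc

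The probes themselves differed in ways that bear on the levels. Of the 17 probes, 15 lay on the strand of their gene and 2, Hif1a probe A_66_P107191 and Pgk1 probe A_52_P1061559, on the opposite strand, against 0.766% of the 17362 kept probes whose strands could be compared. The opposite-strand Hif1a probe is the brightest of its gene and so stands for Hif1a in the gene-level tests. Pfkfb3 probe A_52_P362917 and Eno1 probe A_52_P349939 span an intron. The 60-base sequences of the opposite-strand Hif1a probe, of both intron-spanning probes and of the Ldha probe that was too dim to test are shown because of these traits, with T in capitals because the gap between the Fr3 replicates moved with T content (given further on).
Hif1a A_66_P107191: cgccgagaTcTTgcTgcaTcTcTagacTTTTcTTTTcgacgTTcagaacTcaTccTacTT
Pfkfb3 A_52_P362917: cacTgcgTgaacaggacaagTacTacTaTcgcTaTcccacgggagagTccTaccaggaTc
Eno1 A_52_P349939: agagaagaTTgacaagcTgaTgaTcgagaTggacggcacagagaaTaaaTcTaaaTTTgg
Ldha A_55_P2141876: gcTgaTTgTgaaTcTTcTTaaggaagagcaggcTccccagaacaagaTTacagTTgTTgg

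T made up 36.7% of the letters of the Hif1a probe, 18.3% of the Pfkfb3 probe, 12 of the 60 letters of the Eno1 probe and 26.7% of the Ldha probe. The 6 letters AATAAA, a polyadenylation signal when they lie near the end of a transcript, occurred in 4 of the 17 probes (23.5%), against 9.77% of all probes. Stretches of 30 bases around the 6 letters are given for the 3 genes in which the probe is also the one nearest the 3′ end, with AATAAA in capitals.
Hif1a A_55_P2936147: tttgttatatcaAATAAAcatcttctgtgg
Ldha A_55_P2012984: agtgtcatgccaAATAAAaccttgaacagt
Eno1 A_55_P1958097: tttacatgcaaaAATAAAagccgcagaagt

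Spots well above background made up 44.6% to 52.4% of spots on an array and none was saturated (0 on every array). Itgax averaged 2.53 in Fr1, 1.99 in Fr2 and 0.58 in Fr3, so its RNA was not lowest in the CD11c- fraction. Mrc1 was not well above background on either Fr1 array and averaged 0.49 in Fr2 and 3.23 in Fr3, and Adgre1 averaged 4.44 in Fr1, 5.95 in Fr2 and 5.39 in Fr3, so both were lowest in Fr1. These and all following levels are log2 of the processed intensity relative to the 75th percentile of the array, and levels of different probes cannot be set against each other. Fr1 and Fr3 were hybridised on a shared slide and Fr2 on a second one, so fraction and slide cannot be told apart wherever Fr2 is compared. The Pearson correlation between replicate arrays, taken over genes, was 0.883 for Fr1, 0.898 for Fr2 and 0.796 for Fr3; genes are no independent replicates.

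No member passed an adjusted p of 0.05 in any comparison (limma with Benjamini-Hochberg adjustment over 20817 genes). Over all genes the same rule called 1 gene between Fr1 and Fr3 (0.0048%), 0 between Fr1 and Fr2 (0%) and 1 between Fr2 and Fr3 (0.0048%), with 694 genes higher and 1344 lower in Fr1 than in Fr2 at an unadjusted p under 0.05. The members' adjusted p ran from 0.520 to 0.984 for Fr1 minus Fr3, from 0.462 to 0.930 for Fr1 minus Fr2 and from 0.281 to 0.999 for Fr2 minus Fr3. The values below are therefore differences between these arrays, and words such as higher or lower state the order of means. Because the fractions are sorted populations, fewer cells of a type and less RNA per cell cannot be told apart.

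**Figure D1:**
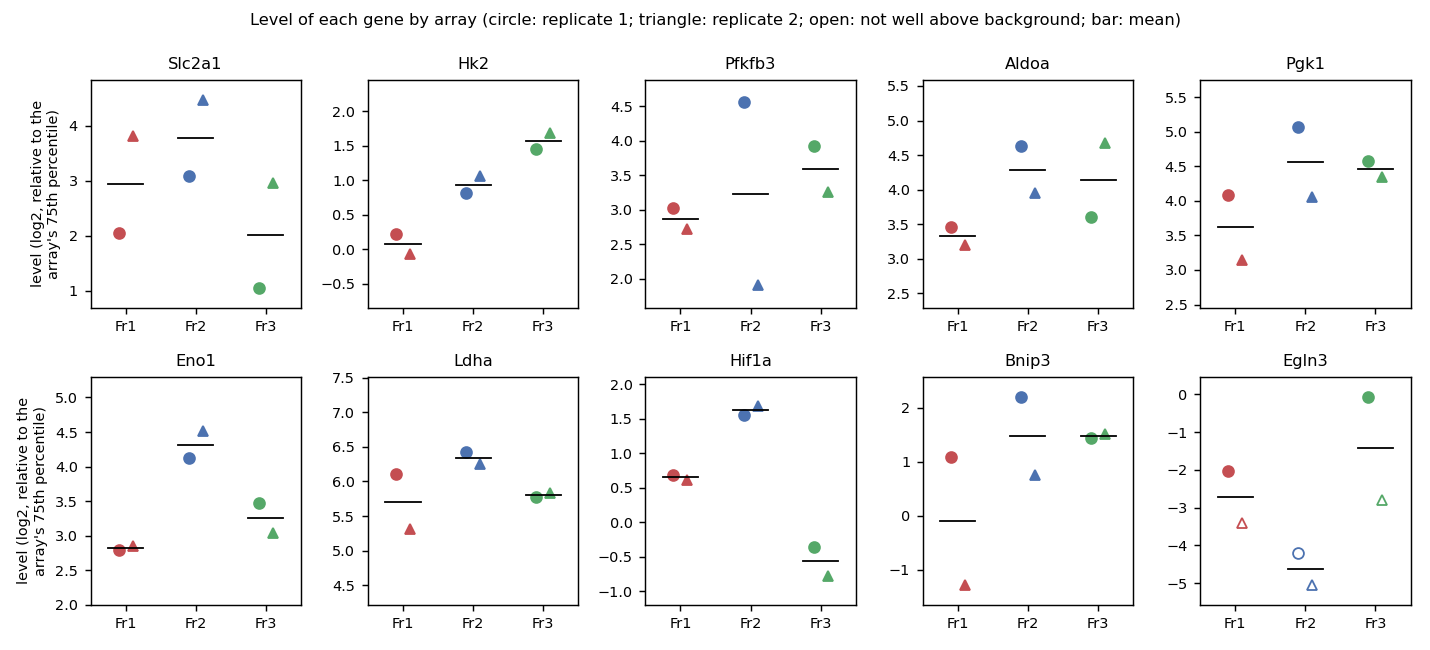
Level of each of the 10 genes on the 6 arrays, on the y axis as log2 above the 75th percentile of the array with a scale of its own in each panel, for Fr1, Fr2 and Fr3 on the x axis. Circles and triangles are replicates 1 and 2, open symbols were not well above background and bars are means. Hk2 was ordered Fr1, Fr2, Fr3 with no overlap, and Hif1a, at its opposite-strand probe, was lowest on both Fr3 arrays and highest on both Fr2 arrays.

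Slc2a1 encodes GLUT1, the glucose transporter through which many activated immune cells take up glucose. Its probe (mm9, chr4:118809864-118809923, plus strand) read 2.06 and 3.82 in Fr1, 3.08 and 4.48 in Fr2 and 1.05 and 2.97 in Fr3. Replicates lay far apart in all 3 fractions, by 1.92 in Fr3. Fr2 lay above Fr3 without overlap, by 1.77 ± 0.95 (SE; limma adjusted p = 0.608), while Fr1 overlapped both of the other fractions.

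Hk2 encodes hexokinase 2, which traps glucose in the cell as glucose 6-phosphate. Its probe (mm9, chr6:82675056-82675115, minus strand) read 0.22 and -0.07 in Fr1, 0.81 and 1.06 in Fr2 and 1.46 and 1.68 in Fr3. The 3 fractions did not overlap, and the replicates of each lay close together, with an SD between 0.15 and 0.20. Hk2 was 2.81-fold lower in Fr1 than in Fr3 (difference -1.49 ± 0.52, SE; limma adjusted p = 0.520). Fr2 too lay below Fr3 without overlap, by -0.63 ± 0.52 (SE; limma adjusted p = 0.673).

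Pfkfb3 makes fructose 2,6-bisphosphate, the activator of phosphofructokinase 1, and is a known hypoxia-responsive gene. Its brighter probe A_51_P212491 (mm9, chr2:11393579-11393638, minus strand) read 3.02 and 2.73 in Fr1, 4.56 and 1.91 in Fr2 and 3.92 and 3.26 in Fr3. The Fr2 replicates were 2.65 apart and enclosed all other arrays. The intron-spanning probe A_52_P362917 (chr2:11404189-11405602) read -0.11 and 1.67 in Fr1, 0.07 and -3.41 in Fr2 and 1.30 and 1.85 in Fr3; the second Fr2 array was dim, that is, not well above background. At both probes the second Fr2 array was the lowest of all, and the mean of Fr1 lay below that of Fr3, by -0.72 ± 0.91 at the brighter probe (SE; limma adjusted p = 0.866). Fr1 minus Fr2 was negative at the brighter probe, -0.36, and positive at the other, 2.45.

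Aldoa encodes aldolase A, which splits fructose 1,6-bisphosphate. Its probe (mm9, chr7:133938816-133938875, minus strand) read 3.46 and 3.20 in Fr1, 4.63 and 3.94 in Fr2 and 3.61 and 4.68 in Fr3. Both Fr1 arrays were the lowest of the 6, by -0.95 ± 0.62 against Fr2 and -0.81 ± 0.62 against Fr3 (SE; limma adjusted p = 0.647 and 0.716). Fr2 and Fr3 overlapped.

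Pgk1 encodes phosphoglycerate kinase 1, the first enzyme of the route that yields ATP. Probe A_55_P2745836, on the strand of the gene (mm9, chrX:103398915-103398974), read 4.09 and 3.14 in Fr1, 5.06 and 4.05 in Fr2 and 4.57 and 4.34 in Fr3. Fr1 lay below Fr3 without overlap (difference -0.84 ± 0.64, SE; limma adjusted p = 0.712) and overlapped Fr2. The opposite-strand probe A_52_P1061559, 139 bases upstream of the other (chrX:103398776-103398835), read 0.17 and 0.73 in Fr1, 0.52 and 0.02 in Fr2 and 1.64 and 1.85 in Fr3. At that probe both Fr3 arrays were the highest and Fr1 and Fr2 overlapped, so the probes placed Fr1 below Fr3 alike but differed on Fr2 against Fr3, with differences of 0.10 and -1.47.

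Eno1 encodes enolase 1, which makes phosphoenolpyruvate. Its brightest probe A_55_P1958097 (mm9, chr4:149622928-149622987, plus strand), one of those with AATAAA shown above, read 2.79 and 2.85 in Fr1, 4.13 and 4.51 in Fr2 and 3.47 and 3.04 in Fr3. The fractions did not overlap: Fr1 was lowest and Fr2 highest. Eno1 was 2.83-fold lower in Fr1 than in Fr2 (difference -1.50 ± 0.54, SE; limma adjusted p = 0.462) and 2.09-fold higher in Fr2 than in Fr3 (difference 1.07 ± 0.54, SE; limma adjusted p = 0.599).

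The intron-spanning Eno1 probe A_52_P349939 (chr4:149618134-149618359), 4628 bases upstream of the brightest one, read -1.45 and -1.09 in Fr1, 0.20 and 0.92 in Fr2 and -1.89 and -0.32 in Fr3. It too had both Fr2 arrays above all others. The third probe, A_65_P08464 (chr4:149616665-149616724), read 0.09 and 0.86 in Fr1, -1.27 and 0.90 in Fr2 and -1.83 and -0.08 in Fr3, and there Fr1 lay above Fr3 and overlapped Fr2. The higher mean of Fr2 over Fr3 was thus shared by all 3 Eno1 probes, with differences of 1.07, 1.66 and 0.77, whereas the order of Fr1 was not.

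Ldha encodes the A subunit of lactate dehydrogenase. Probe A_55_P2012984 (mm9, chr7:54110937-54110996, plus strand) read 6.11 and 5.31 in Fr1, 6.42 and 6.25 in Fr2 and 5.78 and 5.84 in Fr3. Fr2 was above both other fractions without overlap, with Fr1 minus Fr2 at -0.63 ± 0.56 and Fr2 minus Fr3 at 0.53 ± 0.56 (SE; limma adjusted p = 0.755 and 0.741). The mean levels were 5.71 ± 0.57 in Fr1, 6.34 ± 0.12 in Fr2 and 5.81 ± 0.04 in Fr3 (SD, n = 2 each), so the spread of Fr1 covered the mean of Fr3. The other Ldha probe, A_55_P2141876, 7927 bases upstream (chr7:54103010-54103069), was well above background on 1 array, the first of Fr3, and entered no test.

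Hif1a encodes the oxygen-regulated subunit itself, and it had the smallest p of the members in the F-test over the 3 fractions (limma adjusted p = 0.351). At the opposite-strand probe A_66_P107191 (mm9, chr12:75027538-75027597, minus strand) it read 0.68 and 0.61 in Fr1, 1.56 and 1.69 in Fr2 and -0.36 and -0.78 in Fr3. All 3 fractions were separate, with Fr2 highest and Fr3 lowest. The level in Fr2 was 4.56-fold that in Fr3 (difference 2.19 ± 0.53, SE; limma adjusted p = 0.281), and Fr1 was 2.32-fold above Fr3 (difference 1.22 ± 0.53, SE; limma adjusted p = 0.621).

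The 2 Hif1a probes on the strand of the gene gave other orders. Probe A_55_P2149011 (chr12:75033965-75034024) read 0.74 and 1.57 in Fr1 and -1.58 and -0.35 in Fr2. Both Fr3 arrays were dim, with readings of -3.15 and -3.25. At this probe Fr1 was highest: it lay at least 13.4-fold above Fr3 and Fr2 at least 3.08-fold above Fr3, each against the lowest signal well above background on the Fr3 arrays (limma over 27867 probes, adjusted p = 0.143 and 0.342). Probe A_55_P2936147 (chr12:75047819-75047878), nearest the 3′ end, read 0.49 and -3.25 in Fr1, 0.55 and 0.84 in Fr2 and -2.12 and -0.10 in Fr3. Its second Fr1 array was not well above background, and Fr1 spanned the whole of Fr3, with a difference of -0.27 ± 1.27 (SE; limma adjusted p = 0.978).

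At all 3 Hif1a probes both Fr2 arrays thus lay above both Fr3 arrays, by 2.19 and 1.80 on average at A_66_P107191 and A_55_P2936147 and at least 3.08-fold at A_55_P2149011, which was dim in Fr3. They did not share the place of Fr1, which was above Fr2 at A_55_P2149011 by 2.12 ± 0.67 (SE; limma adjusted p = 0.403) and below it at the other probes. Whether the opposite-strand probe reads Hif1a transcripts under this labelling was not tested.

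**Figure D2:**
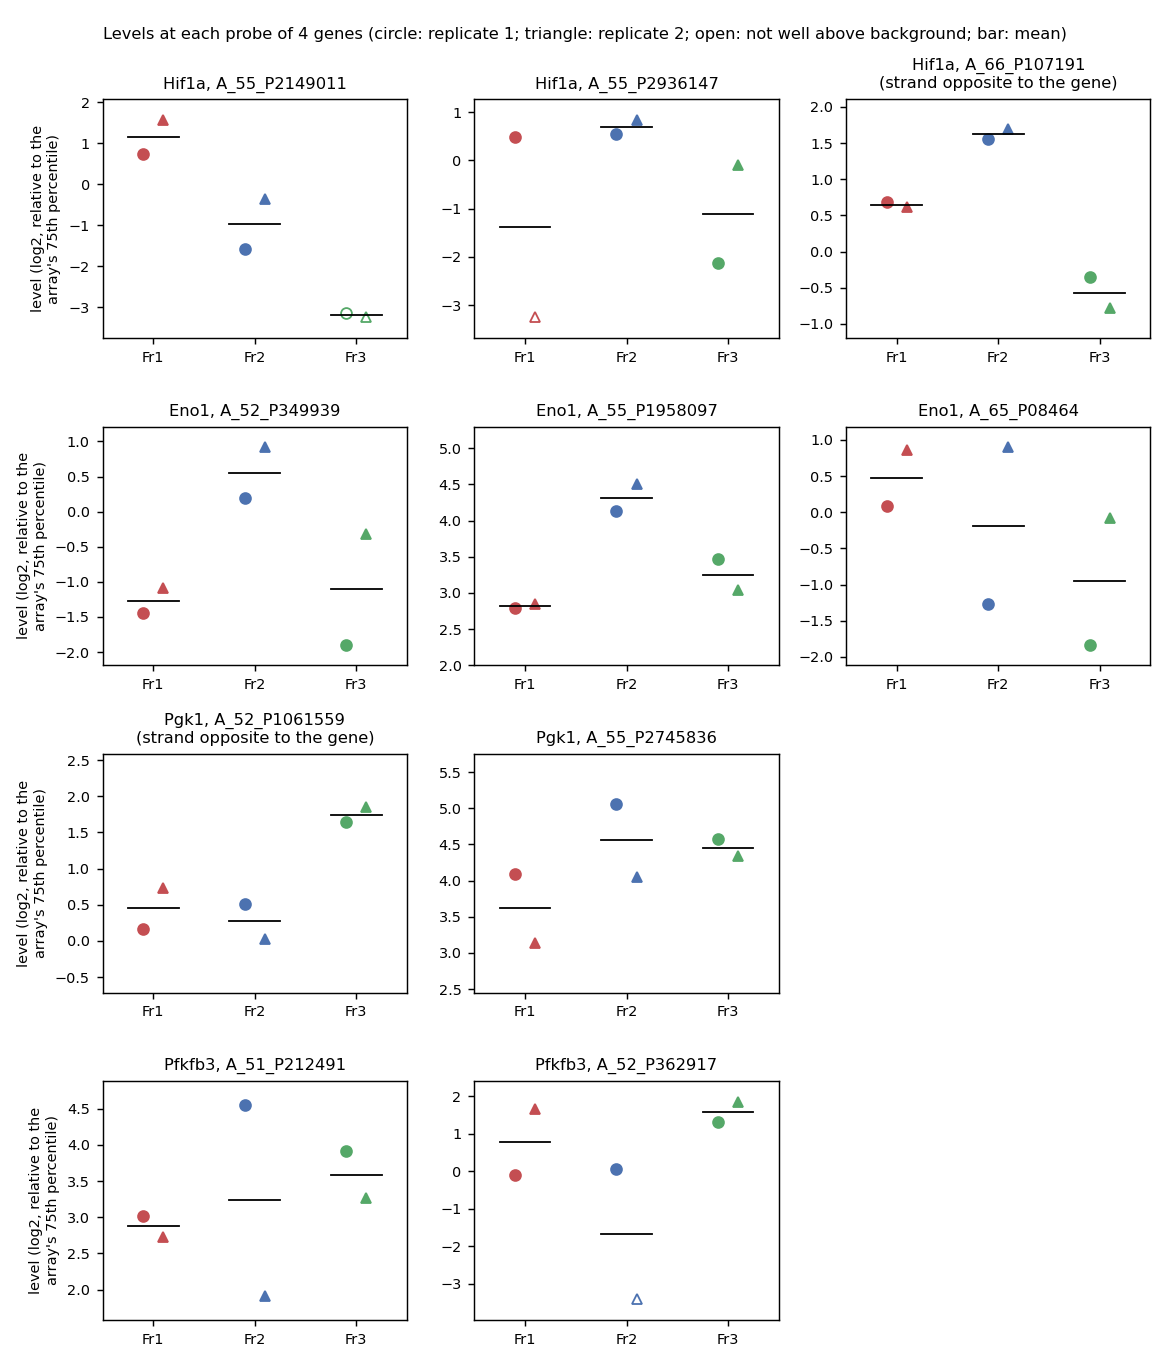
Levels at every probe of Hif1a, Eno1, Pgk1 and Pfkfb3 on the 6 arrays, in log2 above the 75th percentile of the array on the y axis, with a scale of its own in each panel. Circles and triangles are replicates 1 and 2, open symbols were not well above background and bars are means. All 3 probes of Hif1a and of Eno1 had a higher mean in Fr2 than in Fr3, while the place of Fr1 changed from probe to probe.

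Bnip3 encodes a mitochondrial protein that promotes mitophagy and is a classic target of HIF1. Its probe (mm9, chr7:146082760-146082819, minus strand) read 1.09 and -1.28 in Fr1, 2.21 and 0.75 in Fr2 and 1.43 and 1.52 in Fr3. The Fr1 replicates were 2.37 apart. Fr1 lay below Fr3 without overlap (difference -1.57 ± 0.92, SE; limma adjusted p = 0.636), and the means of Fr2 and Fr3 differed by 0.0045 ± 0.92. Fr1 minus Fr3 was -2.76 without Fr1 replicate 1 and -0.38 without Fr1 replicate 2, so its size rests on which Fr1 array is used.

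Egln3 encodes prolyl hydroxylase 3, an oxygen sensor that HIF1 itself induces. Its probe (mm9, chr12:55280953-55281012, minus strand) read -2.03 and -3.41 in Fr1, -4.21 and -5.05 in Fr2 and -0.06 and -2.80 in Fr3. Only the first Fr1 and the first Fr3 array were well above background. The Fr3 mean was 2.86-fold and the Fr1 mean 1.17-fold the lowest signal well above background on the Fr2 arrays, without a test. In each of Fr3 and Fr1 only 1 of 2 arrays measured Egln3. The means include the array that was not well above background, so these folds are not lower bounds.

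**Figure D3:**
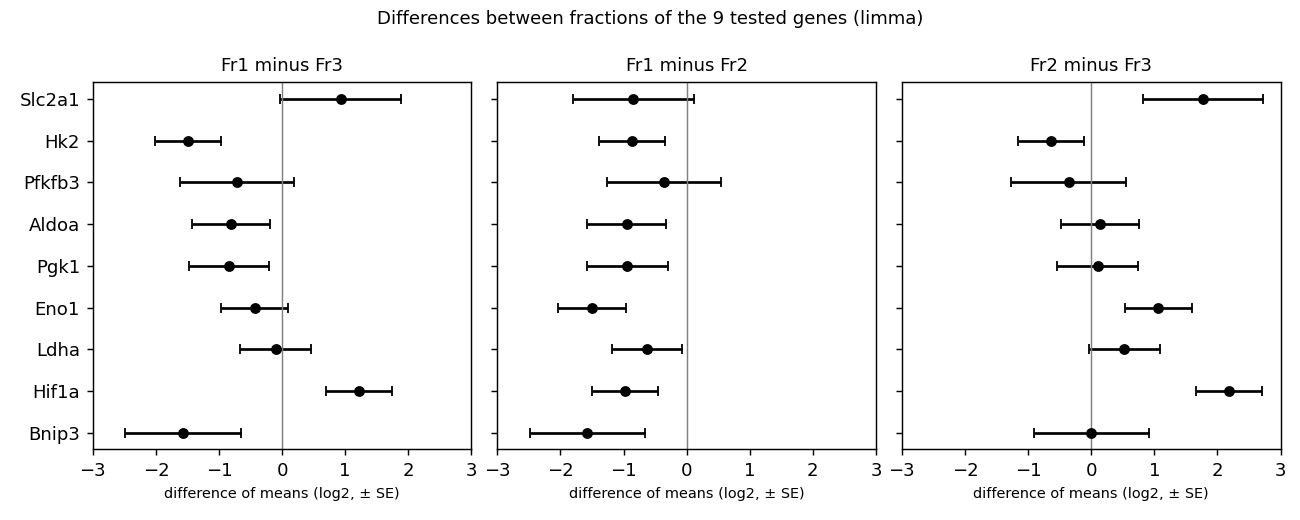
Differences between fractions for the 9 tested genes, as the difference of means in log2 on the x axis with bars of 1 SE from limma, and genes down the page. Each point is the brightest probe of its gene. All 9 points lie below 0 for Fr1 minus Fr2, 7 lie below 0 for Fr1 minus Fr3 and 7 lie above 0 for Fr2 minus Fr3. Another kept probe of Pfkfb3, Pgk1, Eno1 and Hif1a, not shown here, had the opposite sign for Fr1 minus Fr2. So had a probe of Eno1 and of Hif1a for Fr1 minus Fr3, and of Pgk1 for Fr2 minus Fr3.

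At the brightest probe of each gene, all 9 tested members had a lower mean in Fr1 than in Fr2, against 48.6% of all genes. Pfkfb3, Pgk1, Eno1 and Hif1a, the members with other kept probes, each had a kept probe with a higher mean in Fr1. The differences there were 2.45, 0.18, 0.66 and 2.12. These and the following counts rest on the brightest probes. In 5 of the 9 (Hk2, Aldoa, Eno1, Ldha and, at its opposite-strand probe, Hif1a) the arrays did not overlap in that direction, against 22.3% of all genes. At the brightest probes 0 of the 9 were separate the other way (22.5% of all genes) or had a higher mean in Fr1 (51.4%). At Hif1a probe A_55_P2149011, on the strand of the gene, Fr1 lay above Fr2 without overlap. The median difference was -0.94 over the members and 0.03 over all genes. Eno1 alone had an unadjusted p under 0.05 (limma; 6.46% of all genes lower and 3.33% higher in Fr1).

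Against Fr3, 7 members had a lower mean in Fr1 (52.6% of all genes) and 6 did not overlap in that direction: Hk2, Pfkfb3, Aldoa, Pgk1, Eno1 and Bnip3, against 21.9% of all genes. Hif1a was the 1 member separate in the higher direction (13.7% of all genes), at its opposite-strand probe. At other kept probes, Eno1 probe A_65_P08464 had Fr1 above Fr3 without overlap (1.43), and Hif1a probe A_55_P2936147 had a lower mean in Fr1 (-0.27). The median difference was -0.72 over the members and -0.05 over all genes, and Hk2 alone had an unadjusted p under 0.05 (limma; 5.34% of all genes lower and 2.78% higher in Fr1). The lower mean of Ldha in Fr1 turned to a higher one under 3 other scalings. Both comparisons share the Fr1 arrays.

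Between Fr2 and Fr3, 7 members had a higher mean in Fr2 (47% of all genes), and 4 did not overlap in that direction: Slc2a1, Eno1, Ldha and Hif1a, against 19.5% of all genes. Hk2 and Pfkfb3 had a lower mean in Fr2 (53% of all genes), Hk2 without overlap (22.7%). Pgk1, higher in Fr2 at its brightest probe, was lower without overlap at its opposite-strand probe (-1.47). The higher mean of Bnip3 in Fr2 turned to a lower one under 2 other scalings. The median difference over the members was 0.14, against -0.08 over all genes, and Hif1a alone had an unadjusted p under 0.05 (limma; 4.83% of all genes higher and 4.08% lower in Fr2). Probe by probe, 2 of the 15 kept member probes had an unadjusted p under 0.05 for Fr1 minus Fr3 (8.73% of all kept probes), 3 for Fr1 minus Fr2 (10.1%) and 4 for Fr2 minus Fr3 (9.7%). They went both ways in each comparison. Hif1a probe A_55_P2149011 was higher and the Hk2 probe lower in Fr1 than in Fr3. That Hif1a probe was higher and Eno1 probes A_52_P349939 and A_55_P1958097 lower in Fr1 than in Fr2. Hif1a probes A_66_P107191 and A_55_P2149011 were higher in Fr2 than in Fr3, and Pgk1 probe A_52_P1061559 and Pfkfb3 probe A_52_P362917 lower. After adjustment limma called 0 of the 15 in any comparison, against 0%, 0% and 0.00359% of all kept probes.

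Probes rich in T differed from the others in the gap between the Fr3 replicates. Over all kept probes, those with more than 30% T read lower on the second Fr3 array than on the first by a median of -0.30 (11213 probes), and the others read higher by 0.57 (16654 probes). Among the 15 kept member probes, the medians were -0.0033 for 8 probes over 30% T and 0.55 for 7 others. The 9 tested members had a median gap between replicates of 0.30 in Fr1, 0.68 in Fr2 and 0.42 in Fr3, against 0.72, 0.59 and 0.82 over all genes.

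Wider lists of 4 routes place these genes in their routes. Of 29 genes for glycolytic enzymes, glucose and lactate transporters on the array, 27 were tested; 21 had a lower and 6 a higher mean in Fr1 than in Fr2, with a median difference of -0.84, and 3 of the 27 had an unadjusted p under 0.05, all lower in Fr1; of all genes 48.6% had a lower mean in Fr1 and 6.46% were lower at that threshold. Between Fr2 and Fr3, 15 were higher and 12 lower in Fr2, with a median of 0.14 that turned in 3 of 17 alternatives, against 47% of all genes higher. Against Fr3, 17 were lower (52.6% of all genes) and 10 higher in Fr1, with a median of -0.20, which was 0.095 without Fr3 replicate 2. Without the members, 14 of the remaining 20 were lower in Fr1 than in Fr2, with a median of -0.72. No gene of any of the lists passed an adjusted p of 0.05 in any comparison (0 in each; limma).

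Outside the 10 members, the glycolytic genes with the smallest F-test p were Slc16a3, Pfkm, Pfkfb4 and Eno3. Slc16a3, which encodes the lactate exporter MCT4, read 2.13 and 2.40 in Fr1, 2.72 and 4.07 in Fr2 and -1.37 and 0.59 in Fr3. Fr2 was 13.8-fold above Fr3 (difference 3.78 ± 0.83, SE; limma adjusted p = 0.243), and Fr1 was 6.32-fold above Fr3 (limma adjusted p = 0.450). Pfkfb4, a relative of Pfkfb3, read -1.30 and -2.57 in Fr1, 1.73 and -0.20 in Fr2 and 1.76 and -0.14 in Fr3, and so was lowest in Fr1.

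Pfkm, the muscle form of phosphofructokinase, was well above background on the Fr2 arrays alone, at least 1.60-fold above Fr1 and at least 2.01-fold above Fr3. Eno3, the muscle form of enolase, averaged 0.52 ± 0.67 in Fr2 and -1.34 ± 0.95 in Fr3 (SD, n = 2 each; difference 1.86 ± 0.70, SE; limma adjusted p = 0.517). Of 14 skeletal muscle markers, 9 were tested and 6 to 10 were well above background on an array, 6 and 6 in Fr1, 8 and 10 in Fr2 and 9 and 9 in Fr3, and Ckm, Myh2, Mylpf, Actn3 and Des did not pass the filter. The mean level of the tested markers ran from -1.43 to -1.24 in Fr1, from -1.16 to -1.01 in Fr2 and from -0.74 to -0.39 in Fr3; their part in the muscle-form genes was not tested.

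Among 13 tested factors and sensors of the HIF pathway, 8 had a lower mean in Fr1 than in Fr2 (48.6% of all genes) and 5 a higher one, with a median of -0.66. That median was -0.22 without Fr2 replicate 1, -0.23 without Fr1 replicate 1 and -0.024 with no filter. Of the 3 genes with an unadjusted p under 0.05 (limma), 2 were higher in Fr1 (3.33% of all genes) and 1 lower (6.46%). Against Fr3, 9 were lower (52.6% of all genes) and 4 higher in Fr1 (47.4%), with a median of -0.47, which was 0.055 without Fr1 replicate 1. Vhl, whose product marks hydroxylated HIF1A for removal, read 0.09 and 0.28 in Fr1, 0.77 and -0.69 in Fr2 and -2.60 and -2.43 in Fr3. Both Fr3 arrays were the lowest, 1 of them not well above background, and Fr1 minus Fr3 was 2.70 ± 0.65 (SE; limma adjusted p = 0.320). Arnt, the partner of HIF1A, read 2.03 and 3.34 in Fr1, 0.66 and 1.20 in Fr2 and 2.65 and 1.72 in Fr3, and was lowest in Fr2, opposite to Hif1a at its opposite-strand probe. Epas1, which encodes HIF2A, read -0.37 and -4.21 in Fr1, 2.60 and -0.33 in Fr2 and -0.18 and 1.18 in Fr3, with replicates far apart in Fr1 and Fr2. At its kept probe Ep300, a coactivator of HIF1, was not well above background on either Fr2 array. That probe averaged -1.32 ± 0.72 in Fr1 and -1.89 ± 0.37 in Fr3 (SD, n = 2 each). Another Ep300 probe, not kept, was well above background on the second Fr2 array.

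Of 21 tested genes known to be induced by hypoxia, 15 had a lower mean in Fr1 than in Fr2 and 6 a higher one, with a median of -0.48, and 4 had an unadjusted p under 0.05, all lower in Fr1; of all genes 48.6% had a lower mean in Fr1 and 6.46% were lower at that threshold. Against Fr3, 11 were higher (47.4% of all genes) and 10 lower in Fr1 (52.6%), with a median of 0.078 that turned in 4 of 17 alternatives. Between Fr2 and Fr3, 14 were higher in Fr2 (47% of all genes) and 7 lower, with a median of 0.15. Without the member Bnip3, 14 of the remaining 20 had a lower mean in Fr1 than in Fr2, with a median of -0.39. The lists share genes, so their counts are not separate. Slc16a3 and Pfkfb4 are also in the glycolysis list, Egln1 in the HIF list and Pdk1 in the list for pyruvate entry given below. For Fr1 minus Fr2, Pfkfb4 is counted at an unadjusted p under 0.05 (limma) in both of its lists. Vegfa, which encodes the angiogenic factor VEGF-A, read 1.73 and 1.62 in Fr1, 2.71 and 3.70 in Fr2 and 0.34 and 0.28 in Fr3. These are readings of its brightest probe, at which the 3 fractions were separate, with Fr2 7.48-fold above Fr3 (difference 2.90 ± 0.58, SE; limma adjusted p = 0.215). The other 3 kept Vegfa probes also had a higher mean in Fr2 than in Fr3 and in Fr1, but 2 of the 3 placed Fr1 below Fr3. Ero1a, an oxidase of the endoplasmic reticulum, read -2.57 and 0.04 in Fr1, 2.41 and 2.49 in Fr2 and -0.61 and 0.98 in Fr3, highest on both Fr2 arrays. Gbe1, the glycogen branching enzyme, was well above background on the Fr2 arrays alone, at least 1.50-fold above Fr1 and at least 1.88-fold above Fr3.

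For Fr1 minus Fr2, the list for the entry of pyruvate into mitochondria had a median of the opposite sign to the other lists. It holds genes of the route and also kinases that restrain pyruvate dehydrogenase, so the median gives no direction for the route. Of 11 tested genes, 7 had a higher mean in Fr1 than in Fr2 (51.4% of all genes) and 4 a lower one, with a median of 0.49. The median was 0.078 for Fr1 minus Fr3 and 0.22 for Fr2 minus Fr3, and each of these turned in 5 of 17 alternatives. At an unadjusted p under 0.05 (limma) there were 0 of 11. Mpc1, a subunit of the mitochondrial pyruvate carrier, read -0.30 and 0.04 in Fr1, -0.86 and -1.69 in Fr2 and -2.06 and -1.35 in Fr3, highest on both Fr1 arrays (Fr1 minus Fr3 1.58 ± 0.60, SE; limma adjusted p = 0.569). At its brighter probe citrate synthase, Cs, averaged -0.14 ± 0.08 in Fr1, 1.15 ± 0.67 in Fr2 and 0.27 ± 0.75 in Fr3 (SD, n = 2 each), while its other kept probe gave the opposite sign in all 3 comparisons. Pdhx, a component of pyruvate dehydrogenase, averaged 1.66 ± 0.83 in Fr1, 1.22 ± 0.01 in Fr2 and 2.45 ± 0.41 in Fr3 (SD, n = 2 each), and Pdk2, a kinase that restrains that enzyme, was well above background in Fr3 alone, at least 1.06-fold above Fr1 and at least 1.70-fold above Fr2.

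**Figure D4:**
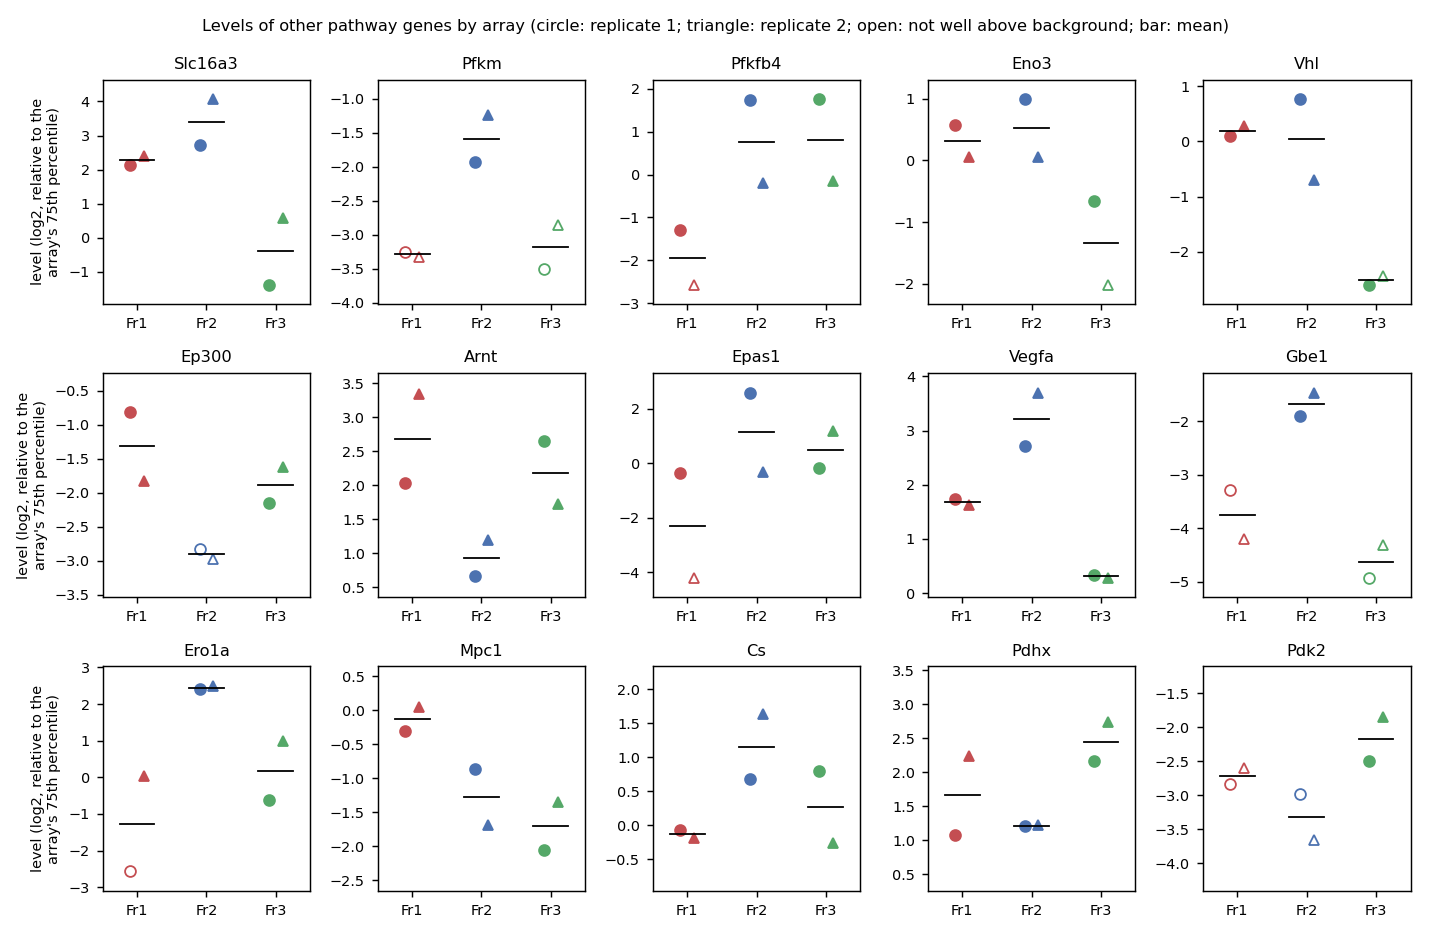
Levels of the 15 other pathway genes named, on the 6 arrays, in log2 above the 75th percentile of the array on the y axis, with a scale of its own in each panel. Circles and triangles are replicates 1 and 2, open symbols were not well above background and bars are means. At their brightest probes Slc16a3 and Vegfa were lowest on both Fr3 arrays, and Pfkm and Gbe1 were well above background on the Fr2 arrays alone.

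Marker lists of cell types differed in the fraction with the highest mean level. It was Fr2 for neutrophil, eosinophil and epithelial markers, Fr3 for macrophage markers and Fr1 for dendritic cell and lymphocyte markers. All 12 tested neutrophil markers had a higher mean in Fr2 than in Fr3 and 11 of the 12 a higher mean in Fr2 than in Fr1; their mean level was 0.55 and 0.77 in Fr1, 3.34 and 3.39 in Fr2 and 0.17 and 0.04 in Fr3. All 8 eosinophil markers were higher in Fr2 than in either other fraction, with mean levels of 0.75 and 0.57 in Fr1, 2.53 and 3.41 in Fr2 and -1.19 and -0.48 in Fr3. Of the 13 neutrophil markers, 11 and 10 were well above background in Fr1, 13 and 12 in Fr2 and 11 and 9 in Fr3, and of the 8 eosinophil markers 7 and 8, 8 and 8, and 5 and 7 in the same order of fractions. S100a9 averaged 6.76 in Fr1, 8.57 in Fr2 and 4.86 in Fr3, while Prg2, a granule protein of eosinophils, was dim on both Fr3 arrays. Of 11 tested macrophage markers, all 11 had a lower mean in Fr1 than in Fr3 and 9 a lower mean in Fr2 than in Fr3, with mean levels of 0.65 and 0.77 in Fr1, 2.41 and 1.05 in Fr2 and 3.91 and 3.56 in Fr3, a list that holds Mrc1 and Adgre1, the genes of the sort markers. Of 11 tested conventional dendritic cell markers, Itgax of the sort among them, 10 had a higher mean in Fr1 than in Fr3 and 7 a higher mean in Fr1 than in Fr2, with mean levels of 0.13 and -0.34 in Fr1, -0.87 and -0.87 in Fr2 and -1.80 and -1.91 in Fr3. Lymphocyte markers averaged 1.27 and 0.74 in Fr1, -1.28 and -0.22 in Fr2 and -0.61 and -0.16 in Fr3, and epithelial markers -0.61 and -0.79 in Fr1, 0.26 and -0.03 in Fr2 and -0.72 and -0.29 in Fr3. Of 6 tested lymphocyte markers, 4 had a higher and 2 a lower mean in Fr1 than in Fr3. Against Fr2, 5 were higher and 1 lower in Fr1. The 8 tested epithelial markers split evenly, with 4 higher and 4 lower in Fr2 against either other fraction. The early response genes that tissue digestion is known to raise averaged 2.86 and 2.59 in Fr1, 4.03 and 3.01 in Fr2 and 4.05 and 3.72 in Fr3. The part of these markers and of T content in the members' levels was not tested.

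The genes whose pattern was most like that of Hif1a at its opposite-strand probe were Nrbf2 (r = 0.993), Ppp2r5a (r = 0.992), Dach1 (r = 0.992), Lgals3 (r = 0.990) and Kif16b (r = 0.988), by Pearson correlation over the 6 arrays among 12907 genes with a symbol. Lgals3, which encodes galectin 3, read 3.39 and 3.27 in Fr1, 3.92 and 4.16 in Fr2 and 2.87 and 2.55 in Fr3. The 6 arrays are 3 pairs of replicates, and the correlations are given as a description.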

How the data were processed

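Single-colour Agilent arrays of 6 samples were used. Per the file headers, the deposited intensity of each spot came out of Agilent Feature Extraction, version 11.5.1.1, with background subtraction and surrogates for dim spots; coordinates are on mm9, per the file headers. The deposited value table, in log2, correlated with the scanner values (r of 0.9999 or more) and was used as an alternative. Its column medians ran from -2.43 to -2.25. With the median gap of each column removed, 100% of probes lay within 0.05 of the scanner values in the Fr1 and Fr3 columns. In the Fr2 columns 91.7% and 90.7% did.

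Spots of one probe were averaged and levels taken as log2 of the processed signal minus the array's 75th percentile. Probes well above background on both arrays of a fraction were kept (27867); 4 were dropped for an outlier flag. The brightest kept probe stood for a gene. Gene names came from RefSeq for 32994 probes through the accession, 10224 through the symbol and 520 through a synonym; 12867 kept their own. Fractions were compared with limma 3.58.1 (R 4.3.3) with 1 mean per fraction fitted over all 6 arrays and 3 residual degrees of freedom, two-sided, and files were read with Python 3.11.15. The fit was tested on simulated data. The small number of arrays limits the precision. Where no array of a fraction was well above background, "at least" folds were taken against the lowest signal well above background on each array, or the signal of the probe where that was higher.

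The members, the 4 pathway lists and the 8 marker lists were chosen with earlier results of these data known. From each pathway list, up to 4 non-members with the smallest F-test p were named, and the 5 genes most like the member with the smallest F-test p. Alternatives covered the background correction, the scaling, the filter, the probe that stands for a gene, T content, the arrays in the fit, the replicate block and each array left out.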

Additional observations from a re-analysis of the deposited data

How the results depend on the processing

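Every member kept an adjusted p above 0.05 under every alternative run. Of 447 alternative values of 27 member differences, 424 kept their direction and 23 of 11 differences turned. Some alternatives cannot change a difference of means, so the 424 overstate how steady the directions were. Among them are the replicate block, the arrays of the 2 fractions alone and an array of the third fraction left out. A gene with only 1 kept probe also keeps its value when another choice of probe is made. The 17 pathway gene differences with an unadjusted p under 0.05 (limma) kept their direction in all 271. Those 17 were picked for a small p on these same arrays, so their steadiness was largely fixed by the choice. Fr2 minus Fr3 stayed between 1.03 and 2.40 for Hif1a, Fr1 minus Fr3 between -1.64 and -0.77 for Hk2 and Fr1 minus Fr2 between -1.69 and -0.89 for Eno1. Over left-out arrays, the differences that turned ranged from -0.029 (without Fr3 replicate 1) to 1.89 for Slc2a1 Fr1 minus Fr3, from -1.72 to 0.038 (without Fr1 replicate 1) for Slc2a1 Fr1 minus Fr2, from -1.68 to 0.97 (without Fr2 replicate 1) for Pfkfb3 Fr1 minus Fr2 and from -1.68 to 0.97 (without Fr2 replicate 2) for Pfkfb3 Fr2 minus Fr3. For Fr2 minus Fr3 they ranged from -0.39 to 0.68 for Aldoa (-0.20 and -0.39 without Fr2 or Fr3 replicate 1), from -0.41 (without Fr2 replicate 1; -0.013 without Fr3 replicate 2) to 0.61 for Pgk1 and from -0.72 (without Fr2 replicate 1; -0.039 without Fr3 replicate 1) to 0.73 for Bnip3. Ldha Fr1 minus Fr3 ranged from -0.51 to 0.30 (without Fr1 replicate 2). The mean of all kept probes turned Pfkfb3 Fr1 minus Fr2 (1.05), Pgk1 Fr2 minus Fr3 (-0.69) and Eno1 Fr1 minus Fr3 (0.28). Leaving out probes over 30% T turned Pfkfb3 Fr1 minus Fr2 (2.45), Pgk1 Fr1 minus Fr2 (0.18) and Pgk1 Fr2 minus Fr3 (-1.47), which then rest on another probe, and left out Aldoa, Hk2, Bnip3 and the probe that stands for Hif1a. Ldha Fr1 minus Fr3 was 0.20 under normexp and quantile, 0.18 under quantile and 0.0059 under the median of detected probes, and Bnip3 Fr2 minus Fr3 was -0.0018 and -0.045 under the first 2 of these. On probes of the strand of the gene, chosen after seeing the data, Hif1a Fr1 minus Fr3 was -0.27. The cause was not tested.

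Genes called (1, 0 and 1 for Fr1 minus Fr3, Fr1 minus Fr2 and Fr2 minus Fr3, and 1 in the F-test) ranged over left-out arrays from 0 to 1476, 0 to 13, 0 to 988 and 0 to 1153; the counts of 1476, 988 and 1153 arose without Fr3 replicate 1, which leaves 1 Fr3 array that is assumed to vary like the other fractions, as is every lone array in these fits. Leaving out probes over 30% T called 12, 3, 56 and 43; normexp and quantile called 0 where the count had been 1, as did the replicate block; no filter and the median of detected probes called 0 for Fr1 minus Fr3 and the F-test, and quantile 0 in the F-test. Probes above background on all arrays called 9 for Fr2 minus Fr3 and 3 in the F-test, and the arrays of the 2 fractions alone called 0, 13 and 0, with no F-test. Members at an unadjusted p under 0.05, 1 in each comparison, ranged over left-out arrays from 0 to 1, 0 to 1 and 1 to 2. They numbered 2, 3 and 3 under normexp and quantile; 2 and 0 for the first 2 comparisons under quantile and under the mean of all kept probes; 2 for Fr1 minus Fr3 under the median of detected probes and probes above background on all arrays; 2 in Fr1 minus Fr3 and in Fr2 minus Fr3 with no filter and with the replicate block; 0 and 2 for these without probes over 30% T; and 0 for Fr2 minus Fr3 on probes of the strand of the gene. Member probes at that threshold, 9 over the 3 comparisons, were 15 under normexp and quantile and 4 to 8 over left-out arrays. Replicate numbers were not established as pairs: deviations of same-numbered arrays correlated at 0.433 (Fr1 and Fr3), 0.118 (Fr1 and Fr2) and 0.0458 (Fr2 and Fr3). With 2 arrays a fraction, medians of the 4 lists moved by more than the replicate spread in 28 of 204 alternative values. Some of the 204 could not move, as when an array of the third fraction was left out.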
